A study of Mus musculus with 4 samples.

Results

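The transcription factor genes that direct cartilage and bone formation were examined in forelimb buds of mouse embryos with and without the chromatin remodelling subunit gene Smarcc1. They were 10 genes, taken by name and matched by Ensembl identifier to the mm10 annotation: Sox9, Sox5, Sox6, Runx1, Runx2, Runx3, Cbfb, Sp7, Nkx3-2 and Trps1. All 10 were found in the deposited table, among 35689 genes in all. Each of the 4 libraries held the 2 forelimb buds of 1 embryo at E11.5. Knockout embryos had the genotype PrxCre/+;Smarcc1c/c and controls Prx+/+;Smarcc1c/c, so that both carried the conditional Smarcc1 allele on both chromosomes and only the knockouts carried Cre. The Prx promoter drives Cre in limb bud mesenchyme, and surface ectoderm, blood, vessels, nerve and migrating muscle precursors in the same tissue are outside its main domain. Each genotype had 1 embryo of 40 somites and 1 of 39 somites.

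SMARCC1 (BAF155) is a core subunit of the BAF complex, which moves nucleosomes and so governs access of transcription factors to DNA. In the limb bud, mesenchymal cells gather into condensations that prefigure the skeleton. SOX9 starts and maintains the cartilage programme there, and SOX5 and SOX6 act with it on cartilage matrix genes. RUNX2 and then SP7 (osterix) commit cells to bone, and the RUNX proteins bind DNA together with their common partner CBFB.

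Abundance is given as TPM, a share of all transcripts in a library after scaling for transcript length, so that every library has the same total. The read depth behind it is unknown, so precision rests on the spread between embryos (n = 2 per genotype), which the test shares in part across genes. Smarcc1 itself stood at 112 and 119.6 TPM in the controls and at 46.2 and 38.4 TPM in the knockouts (knockout minus control of log2(TPM + 1), here called the log2 fold change, -1.44 ± 0.13 SE; limma, Benjamini-Hochberg adjusted p = 0.0117). Between 12555 and 12689 genes reached 1 TPM in each library. Ddx3y, which lies on the Y chromosome, reached 28.3 and 30.2 TPM in the libraries of 39 somites and at most 0.0498 TPM in those of 40 somites, so sex coincided with stage in both genotypes. All 8 markers of limb mesenchyme that were listed reached 1 TPM in every library, with summed levels of 732 and 876.5 TPM in the controls and 745 and 859 TPM in the knockouts. Within that sum Pdgfra, a growth factor receptor gene of mesenchyme, was called higher (79.5 and 84.0 against 161.8 and 173.4 TPM; limma, adjusted p = 0.0165). Prrx1, a homeobox gene of limb mesenchyme, was lower without overlap and not called (188 and 201 against 129.9 and 139.8 TPM; limma, adjusted p = 0.101, and 0.0293 with somite stage as a block).

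None of the 10 regulators was called different between the genotypes. Of these, 7 reached 1 TPM in 2 or more libraries and were tested, and 0 of the 7 passed limma with Benjamini-Hochberg adjustment over 12809 genes at 0.05, where 1.3% of all tested genes passed. At an unadjusted limma p under 0.05 there was 1 of 7, against 13.7% of tested genes. This was Runx2, which reached 1 TPM in the knockouts alone and so entered the test through its knockout values. Leaving out 1 knockout library gave 1 call each time, Sox9 without the embryo of 40 somites (5.04% of tested genes called in that fit) and Runx2 without that of 39. Leaving out 1 control gave 0 regulators, against 0.461% and 0.39% of tested genes, and somite stage as a block also gave 0, against 4.16%. With a library left out, stage and sex were not balanced between the genotypes, so those fits carry part of any stage difference. Runx1, Runx3 and Nkx3-2 did not reach the level for testing. In simulated data of this design the test called 1.26% of changes of 0.5 log2 units and 55.8% of 1 unit. A missing call therefore does not show that a regulator was unchanged. The median log2 fold change of the 7, knockout minus control on the log2(TPM + 1) scale, was -0.01, and that of all tested genes was 0.01. Library by library, the genotypes did not overlap in 5 of the 10 regulators. Among the 7 tested it was 2 (28.6%). These shares lie near or below that of all tested genes, given below. In Runx1, Runx2, Runx3, Sp7 and Nkx3-2, all with a mean under 2 TPM, the values of the genotypes did not overlap, the knockouts lying above the controls for 2 genes and below them for 3. In Sox9, Sox5, Sox6, Cbfb and Trps1 the genotypes overlapped. Groups that did not overlap were found in 43.9% of all tested genes (22.7% with the knockouts above) and in 34.2% of all genes with a mean TPM above 0 and under 2.

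**Figure D1:**
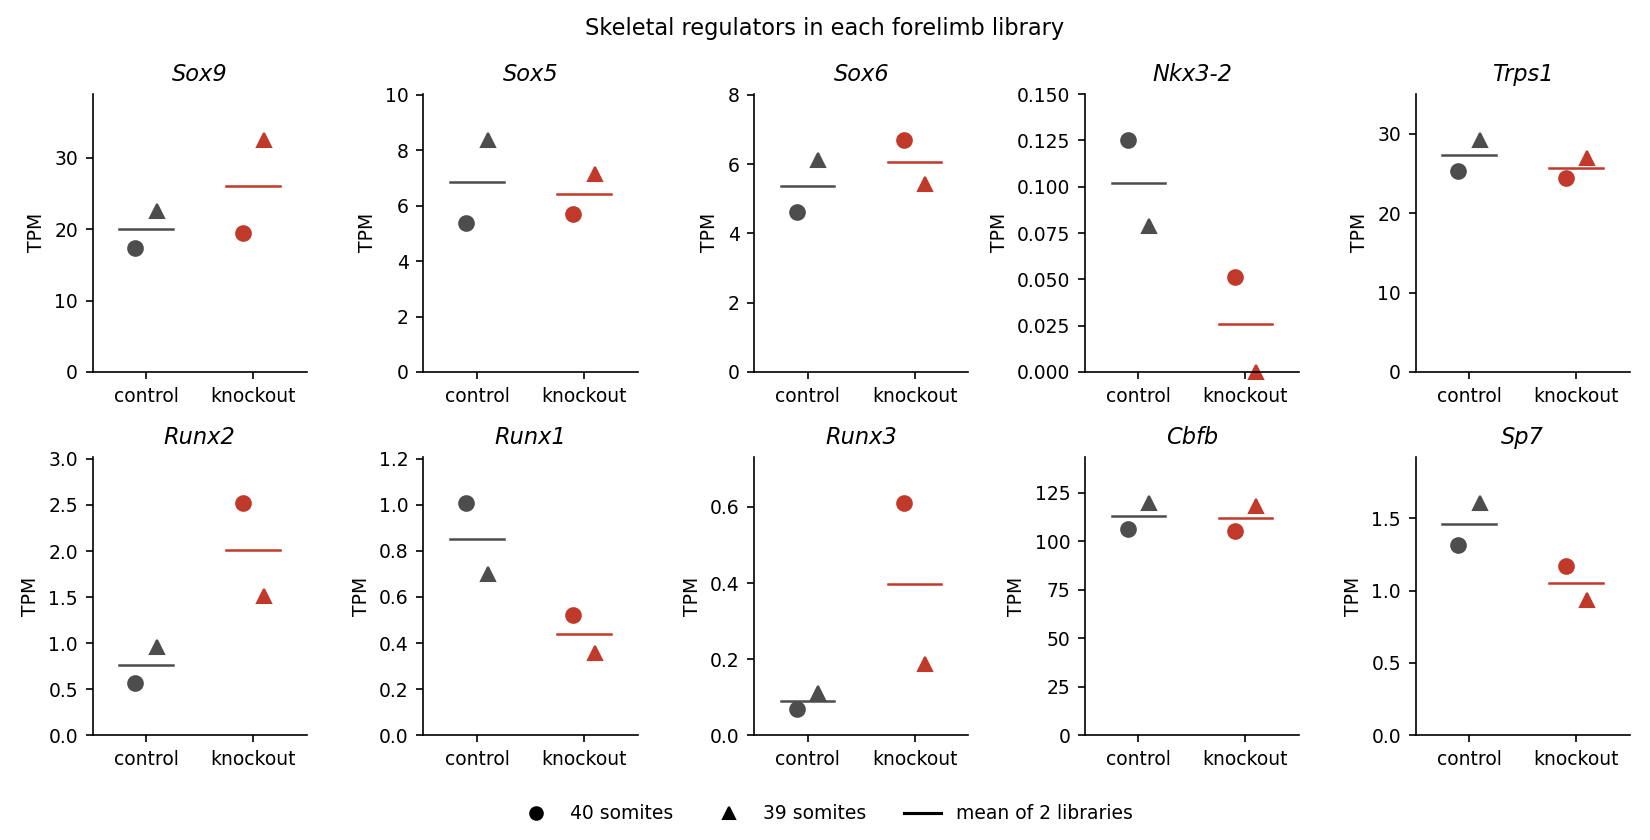
TPM of each of the 10 regulators in the 4 forelimb libraries, on a linear axis from 0 that differs between panels; circles are embryos of 40 somites, triangles embryos of 39 somites, and lines are means of 2 libraries. Runx2 and Runx3 lie higher and Runx1, Sp7 and Nkx3-2 lower in both knockouts, all at under 3 TPM, while the other 5 genes overlap.

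TPM allows levels to be compared between genes, and they differed widely. Cbfb was the most abundant, with a mean over the 4 libraries of 112 TPM, above 90.2% of tested genes. Trps1 (26.5 TPM) and Sox9 (23.0 TPM) followed, and their ranges overlapped. Sox5 (6.64 TPM) and Sox6 (5.71 TPM) came next and overlapped each other, at 3.46-fold below Sox9 for the nearer. Runx2 (1.39 TPM), Sp7 (1.26 TPM), Runx1 (0.646 TPM), Runx3 (0.244 TPM) and Nkx3-2 (0.0639 TPM) formed the low end, where each neighbouring pair overlapped. The breaks without overlap were thus those between Cbfb and Trps1, between Sox9 and Sox5, and between Sox6 and Runx2.

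Sox9, the master regulator of chondrocyte fate (chromosome 11, 112782224 to 112787760), stood at 17.4 TPM (40 somites) and 22.5 TPM (39 somites) in the controls and at 19.5 and 32.5 TPM in the matching knockouts. The knockout of 39 somites was the highest of the 4 libraries, and the knockout of 40 somites lay between the controls. The log2 fold change was 0.33 ± 0.25 (SE, 2 libraries per genotype), with a 95% interval from -0.28 to 0.94 (limma, Benjamini-Hochberg adjusted p = 0.65). The value changed with the library left out. Without the knockout of 40 somites it was 0.69, and without the knockout of 39 somites it was -0.02. Each of these fits sets 1 knockout against controls of both stages. Both therefore carry part of the stage difference, which for Sox9 was -0.53 for 40 minus 39 somites. Within stages the knockout lay above the control by 0.15 log2 units at 40 somites and 0.51 at 39.

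Sox5 and Sox6 encode closely related SOX proteins that have no activation domain of their own and help SOX9 on cartilage enhancers. Sox5 (chromosome 6, 143828425 to 144781977) stood at 5.36 and 8.37 TPM in the controls, in the same order of stages, and at 5.70 and 7.13 TPM in the knockouts. Both knockouts lay inside the range of the controls. Sox6 (chromosome 7, 115470872 to 116038796) stood at 4.62 and 6.10 TPM in the controls and at 6.70 and 5.42 TPM in the knockouts, again with overlap. The log2 fold changes were -0.07 for Sox5, with a 95% interval from -0.60 to 0.47, and 0.15 for Sox6, with an interval from -0.29 to 0.60 (limma, adjusted p = 0.939 and 0.796). Their sum was 9.98 and 14.5 TPM in the controls and 12.4 and 12.6 TPM in the knockouts. Sox6 made up 46.2% and 42.2% of that sum in the controls and 54.0% and 43.2% in the knockouts, and the library of 40 somites with the knockout was the one in which Sox6 exceeded Sox5. Sox9 amounted to 1.75 and 1.56 times Sox5 and Sox6 together in the controls and 1.57 and 2.59 times in the knockouts, so the ratio also overlapped.

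Trps1 and Nkx3-2 are both transcriptional repressors with roles in cartilage. Trps1, a GATA-type zinc finger gene that restrains chondrocyte maturation (chromosome 15, 50654752 to 50890463), stood at 25.3 and 29.2 TPM in the controls and 24.5 and 27.0 TPM in the knockouts. The stages differed more than the genotypes did, and the log2 fold change was -0.08 with a 95% interval from -0.39 to 0.23 (limma, adjusted p = 0.864). Nkx3-2 (Bapx1), a homeobox gene of the axial skeleton and some joints (chromosome 5, 41761483 to 41764501), was at the edge of detection in the forelimb bud. It stood at 0.125 and 0.0791 TPM in the controls and at 0.0513 TPM in the knockout of 40 somites, and it was listed at 0 in the knockout of 39 somites. It was not tested, and no fold is given.

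Runx2, the gene of the osteoblast master factor, which also drives chondrocyte hypertrophy (chromosome 17, 44495987 to 44814797), stood at 0.572 TPM (40 somites) and 0.963 TPM (39 somites) in the controls and at 2.52 and 1.51 TPM in the knockouts. Both knockouts exceeded both controls, and the ratio of the means was 2.63. The log2 fold change was 0.76 ± 0.23 (SE, 2 libraries per genotype), with a 95% interval from 0.20 to 1.32, and it did not pass over all genes (limma, Benjamini-Hochberg adjusted p = 0.227, unadjusted 0.016). Runx2 reached 1 TPM in the knockouts alone, so it entered the test through its knockout values. The log2 fold change was 1.0 without the knockout of 39 somites, which was a call (limma, adjusted p = 0.00762; in that fit 3.91% of all tested genes were called), and 0.52 without the knockout of 40 somites (adjusted p = 0.42). At a pseudocount of 0.1 it was 1.28 and at a pseudocount of 5 it was 0.28, as the added constant weighs most on genes near 1 TPM.

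Runx1, best known from blood formation and also active in early skeletal mesenchyme (chromosome 16, 92601466 to 92826149), stood at 1.01 and 0.699 TPM in the controls and at 0.523 and 0.357 TPM in the knockouts. Both knockouts lay below both controls, at 0.516 of the control mean. Runx3, with roles in cartilage maturation, sensory neurons and immune cells (chromosome 4, 135120652 to 135177990), stood at 0.0696 and 0.112 TPM in the controls and at 0.610 and 0.186 TPM in the knockouts. The knockout of 40 somites set most of that difference. With the filter on low values removed, limma gave Runx1 a log2 fold change of -0.36 ± 0.13 and Runx3 one of 0.34 ± 0.16 (adjusted p = 0.428 and 0.557). At these levels few transcripts lie behind each value, and their number is unknown.

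Together the 3 Runx genes summed to 1.65 and 1.77 TPM in the controls and to 3.65 and 2.05 TPM in the knockouts. The make-up of that sum differed between genotypes in every library. Runx1 took 61.1% and 39.4% of it in the controls and 14.3% and 17.4% in the knockouts, and Runx2 took 34.7% and 54.3% in the controls and 69.0% and 73.6% in the knockouts. Runx3 took 4.22% and 6.29% in the controls and 16.7% and 9.06% in the knockouts. Neither genotype overlapped the other in any of the 3 shares. As parts of the same sum, the shares depend on each other and restate the TPM values given above, so they are not separate findings. Single genes did not overlap in 43.9% of all tested genes and in 34.2% of all genes with a mean TPM above 0 and under 2. No such background was computed for shares of a sum. The 3 shares have no test of their own. With 2 libraries per genotype the smallest two-sided p of an exact permutation test is 0.333.

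**Figure D2:**
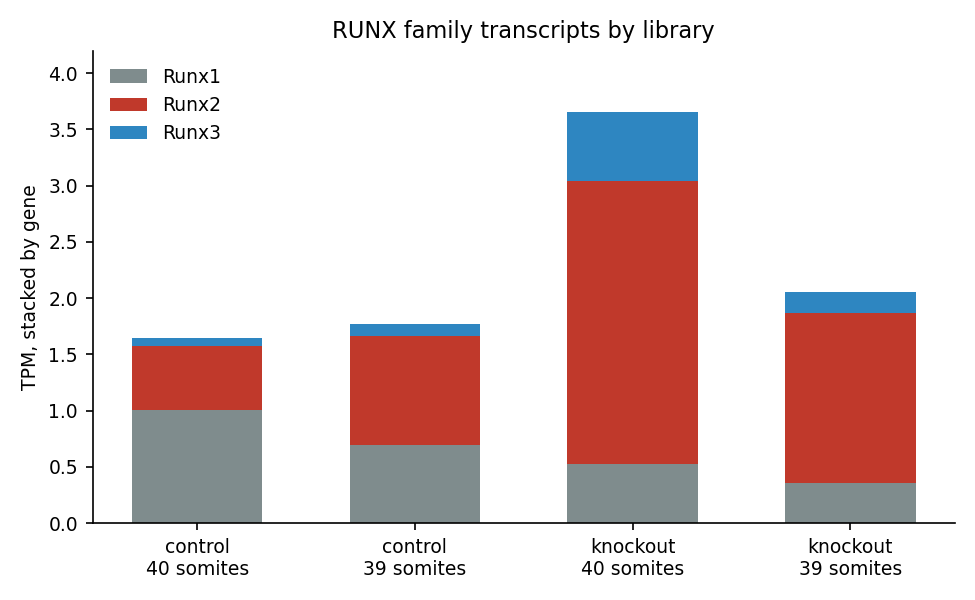
TPM of Runx1, Runx2 and Runx3 stacked for each of the 4 libraries, on a linear axis from 0. The sum is 1.65 and 1.77 TPM in the controls and 3.65 and 2.05 TPM in the knockouts, and Runx2 takes 69.0% and 73.6% of it in the knockouts.

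RUNX proteins bind a short motif that also occurs in promoters of their own genes, and the upstream sequences of the 3 Runx genes are shown because these were the genes whose shares differed most. Each is the 250 bases before the RefSeq start site farthest upstream in the gene (build GRCm38.p6, the same assembly as mm10), 5′ to 3′ on the gene's own strand. Capitals mark matches to the RUNX motif TGTGGT or TGCGGT on either strand, ACCACA being TGTGGT on the opposite strand. The Runx1 stretch is chr16:92826075-92826324 on the minus strand, that of Runx2 is chr17:44814628-44814877 on the minus strand, and that of Runx3 is chr4:135120395-135120644 on the plus strand.
Runx1: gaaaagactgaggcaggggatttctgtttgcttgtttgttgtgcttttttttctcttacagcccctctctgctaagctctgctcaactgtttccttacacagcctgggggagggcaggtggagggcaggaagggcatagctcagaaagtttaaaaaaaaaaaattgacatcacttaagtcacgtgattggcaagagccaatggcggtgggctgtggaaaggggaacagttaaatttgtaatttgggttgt
Runx2: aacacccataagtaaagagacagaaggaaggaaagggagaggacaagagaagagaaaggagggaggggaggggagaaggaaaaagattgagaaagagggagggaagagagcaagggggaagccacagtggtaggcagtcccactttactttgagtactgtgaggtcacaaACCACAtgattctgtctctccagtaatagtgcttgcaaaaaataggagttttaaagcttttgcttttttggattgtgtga
Runx3: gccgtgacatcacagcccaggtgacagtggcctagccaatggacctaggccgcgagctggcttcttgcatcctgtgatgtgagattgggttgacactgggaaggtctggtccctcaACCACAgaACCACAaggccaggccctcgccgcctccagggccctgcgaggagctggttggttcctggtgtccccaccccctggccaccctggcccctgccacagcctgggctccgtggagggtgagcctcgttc
The Runx2 stretch held 1 match, starting 80 bases before the start site, and the Runx3 stretch held 2, starting 126 and 134 bases before it. The Runx1 stretch held 0, as did the stretches at the further start sites of Runx1 and Runx3. Matches were not confined to Runx genes, as 1 lay in each of the Sox6 stretches chr7:115824711-115824960 and chr7:115846141-115846390. Of 32851 RefSeq promoter windows, 18.6% held at least 1 such match in the same 250 bases, so a match is common, and it is not shown to be a site in use. The G and C content was 45.6% in the Runx1 stretch, 44.8% in that of Runx2 and 65.2% in that of Runx3. Promoter sequences were matched for 7 of the 10 regulators, and Sox9, Sp7 and Trps1 had no entry. The SOX motif AACAAT, on either strand, was found in 1 of the 14 stretches of the 7 genes, at an internal start site of Sox6, where it occurred at 2 places, against 9.4% of all windows.

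Cbfb encodes the common partner of the RUNX proteins (chromosome 8, 105170674 to 105217989). It stood at 106 TPM (40 somites) and 119.7 TPM (39 somites) in the controls and at 105.4 and 118 TPM in the knockouts. The 2 genotypes were closer to each other at each stage than the stages were within a genotype. Its log2 fold change was -0.01 with a 95% interval from -0.31 to 0.28 (limma, adjusted p = 0.979). Cbfb exceeded the sum of the Runx genes 64.4-fold and 67.5-fold in the controls and 28.9-fold and 57.5-fold in the knockouts.

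Sp7, which acts after RUNX2 in osteoblast commitment (chromosome 15, 102356606 to 102367182), stood at 1.31 and 1.60 TPM in the controls and at 1.17 and 0.935 TPM in the knockouts. Both knockouts lay below both controls, opposite in direction to Runx2. The log2 fold change was -0.26 ± 0.17 (SE, 2 libraries per genotype), with a 95% interval from -0.68 to 0.17, and did not pass (limma, adjusted p = 0.599). Runx2 amounted to 0.436 and 0.600 times Sp7 in the controls and to 2.15 and 1.62 times Sp7 in the knockouts. The order of these 2 osteoblast factors was therefore reversed between the genotypes in all 4 libraries, at levels near 1 TPM. This ratio reuses the Runx2 and Sp7 values given above, neither of which was a call, and it had no test of its own.

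**Figure D3:**
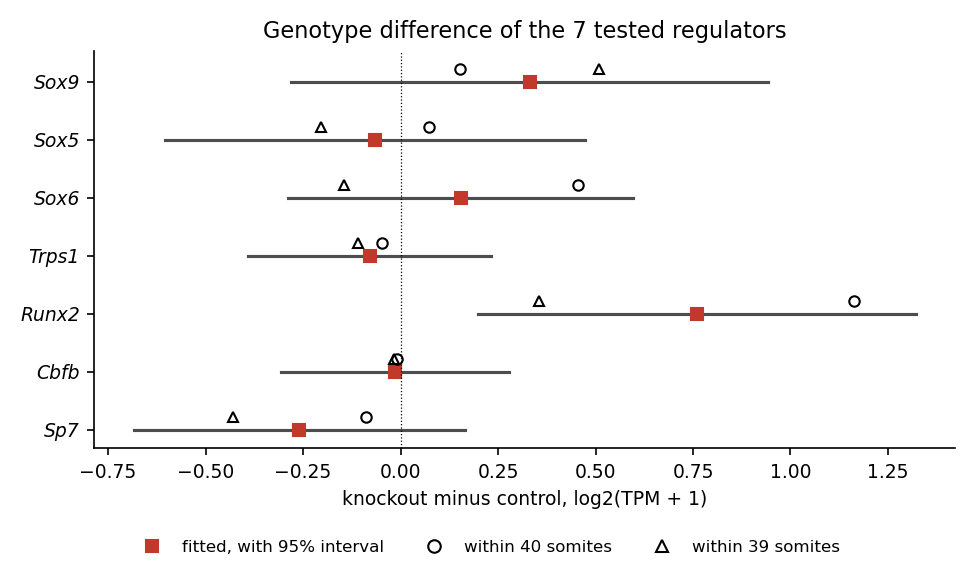
Knockout minus control on the log2(TPM + 1) scale for the 7 tested regulators: squares are the limma estimate with its 95% interval, and open circles and triangles are the differences within 40 and 39 somites (1 embryo of each genotype). The interval of Runx2 lies above 0 before adjustment, at 0.20 to 1.32, and those of the other 6 genes cross 0.

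Reads of these genes could mostly be told apart from those of other genes. In the annotated transcripts of the same build, Sox6, Cbfb and Nkx3-2 shared 0 of their 31-base words with any other gene, and Sox9, Runx1, Runx3, Sp7 and Trps1 shared at most 1.44%. Sox5 shared 9.37% of its words, mostly with the antisense gene Sox5os1, and Runx2 6.39%, mostly with the antisense gene Runx2os1. An antisense gene also overlaps exons of Runx1. These antisense genes were not analysed here, and whether reads were assigned by strand is not given in the sources used here, so part of the signal of Sox5, Runx2 and Runx1 could belong to them.

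Several regulators differed between the somite stages at least as much as between the genotypes. Sox9 was lower at 40 than at 39 somites by 0.35 log2 units in the controls and 0.71 in the knockouts, and Sox5 by 0.56 and 0.28. Cbfb and Trps1 were also lower at 40 somites in both genotypes. With genotype in the model, the difference of 40 minus 39 somites was -0.53 ± 0.11 for Sox9 and -0.42 ± 0.12 for Sox5, and neither passed over all genes (limma, Benjamini-Hochberg adjusted p = 0.162 and 0.183). For stage 0 of 7 regulators passed, against 0.164% of all tested genes, and 3 (Sox9, Sox5 and Cbfb) had an unadjusted p under 0.05, against 21.6% of all tested genes. This comparison was added after the values had been seen. Sex cannot be told apart from stage here. Marker levels of other cells in the bud also differed with stage, as shares of RNA and not as cell counts. Summed endothelial markers stood at 81.3 and 98.8 TPM at 40 somites and 142.8 and 138 TPM at 39 somites, and summed surface ectoderm markers at 637 and 513 TPM against 425 and 329 TPM. Their part in the stage differences was not tested. With stage as a block the estimate for Sox9 between genotypes stayed at 0.33 with an SE of 0.11, and the limma adjusted p was 0.169.

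Genes that act before or during condensation were largely without a call, with 1 higher and 0 lower of 27 tested, where 0.812% of all tested genes were called higher and 0.492% lower. Bmp5, a bone morphogenetic protein of skeletal condensations, had 6.03 and 6.22 TPM in the controls and rose to 20.8 and 18.1 TPM in the knockouts, a log2 fold change of 1.52 ± 0.13 (limma, Benjamini-Hochberg adjusted p = 0.0117). Tgfb2, a TGF-beta ligand, stood at 6.75 and 7.90 against 4.19 and 4.07 TPM. Gdf6, a growth factor gene of joints, stood at 1.17 and 1.09 against 0.413 and 0.269 TPM, and the forkhead gene Foxc2 at 0.714 and 1.2 against 2.39 and 2.16 TPM. None of the 3 passed (limma, adjusted p = 0.109, 0.171 and 0.162), and Gdf6 entered the test through its control values, the only ones to reach 1 TPM. The list had a median log2 fold change of -0.05. With no filter on low values limma called 0 of 20946 genes, so that Smarcc1 (adjusted p = 0.111), Bmp5 and the calls described next were lost in that fit.

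Among cartilage genes, many of them targets of SOX9 with SOX5 and SOX6, 0 rose and 2 fell of 17 tested, and 15 did not pass. Of all tested genes 0.812% were called higher and 0.492% lower. Col9a3, a chain of the cartilage collagen IX, had 3.53 and 4.01 TPM in the controls and fell to 0.710 and 1.24 TPM with the knockout (log2 fold change -1.28 ± 0.19; limma, adjusted p = 0.0432). Col27a1, a fibrillar collagen of cartilage, fell from 9.56 and 9.65 TPM to 4.71 and 4.97 TPM (-0.86 ± 0.13; limma, adjusted p = 0.0465). Leaving out either control ended both calls, and that of Col9a3 also ended at a pseudocount of 0.1 and under median-ratio or quantile scaling. With a filter of 5 TPM Col27a1 was not called and Col9a3 was not tested. Pth1r, the receptor of parathyroid hormone-related peptide, stood at 16.4 and 20.9 TPM in the controls and 5.76 and 9.55 TPM in the knockouts. Papss2, which makes the sulphate donor for cartilage proteoglycans, had 2.08 and 3.39 TPM against 8.30 and 6.16. Both stayed short of the threshold (limma, adjusted p = 0.0922 and 0.0934), and Pth1r passed with somite stage as a block (limma, adjusted p = 0.0188). The main collagen of early cartilage, Col2a1, stood at 75.7 and 73.6 TPM in the controls and 77.4 and 78.9 TPM in the knockouts (a log2 fold change of 0.06; limma, adjusted p = 0.855). The median of the list was -0.09. Markers of mature cartilage were near 0, with Acan at 0.0564 TPM or less and Col10a1 at 0.0230 TPM or less in every library.

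Among osteoblast genes, 2 were called higher and 0 lower of 12 tested, against 0.812% and 0.492% of all tested genes. Col1a1, a chain of type I collagen, stood at 9.61 and 10.7 TPM in the controls and rose to 45.1 and 58.5 TPM (log2 fold change 2.23 ± 0.16; limma, adjusted p = 0.00694). Postn, the matrix protein periostin, rose from 1.47 and 0.723 TPM to 5.37 and 4.95 TPM (1.58 ± 0.21; limma, adjusted p = 0.0346), and its call ended without the control of 39 somites, at a pseudocount of 0.1 and under median-ratio or quantile scaling. Both are also made by connective tissue cells other than osteoblasts. Col1a2, the other type I collagen chain, stood at 93.9 and 121.7 TPM against 157.6 and 173.5 TPM. Smpd3, a sphingomyelinase gene of mineralising tissue, had 2.05 and 1.84 TPM against 0.907 and 0.436 and entered the test through its control values. Both stayed short of the threshold (limma, adjusted p = 0.145 and 0.148), and Col1a2 passed with somite stage as a block (limma, adjusted p = 0.0335). The genes of mineralising osteoblasts Ibsp and Bglap2 were listed at 0 in every library. Bglap, too low to be tested, stood at 0.624 and 0.622 TPM in the controls and 0.246 and 0.156 TPM in the knockouts. Of the 12 tested, 4 lay higher and 4 lower without overlap, against 22.7% and 21.2% of all tested genes. At an unadjusted limma p under 0.05 there were 3 higher and 3 lower. The median of the list was 0.05.

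Among factors that restrain RUNX2 or osteoblast differentiation, 0 were called higher and 1 lower of 9 tested, against 0.812% and 0.492% of all tested genes. Msx2, a homeobox gene that holds back osteoblast maturation, stood at 36.4 and 33.8 TPM in the controls and 13.3 and 8.53 TPM in the knockouts (-1.62 ± 0.20; limma, adjusted p = 0.0283), a call that ended without either control and under median-ratio or quantile scaling. Twist1, a bHLH factor whose protein binds RUNX2, stood at 129 and 150.9 TPM in the controls and 163 and 197.8 TPM in the knockouts, and did not pass (0.36 ± 0.14; limma, adjusted p = 0.344). Twist2 stood at 41.5 and 40.7 against 29.3 and 38.2 TPM, and the ubiquitin ligase gene Smurf1 at 13.9 and 16.0 against 12.5 and 13.0 TPM. The median of the list was -0.10.

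Among relatives and cofactors of the SOX and RUNX factors, 0 of 19 tested passed in limma. At an unadjusted p under 0.05 there were 5, 2 of them higher and 3 lower, against 13.7% of all tested genes in either direction. Aes (Tle5), a gene of the Groucho family, stood at 263.8 and 287.6 TPM in the controls and 157.7 and 180.3 TPM in the knockouts. The log2 fold change was -0.70 ± 0.12 (limma, adjusted p = 0.0637), and it passed with stage as a block (limma, adjusted p = 0.0193) and in 7 other alternatives. Sox13, the third SoxD gene beside Sox5 and Sox6, stood at 13.9 and 15.1 against 10.8 and 10.1 TPM, and without overlap. Sox4, a SoxC gene expressed ahead of Sox9 in mesenchyme, stood at 72.4 and 71.0 against 86.9 and 107.7 TPM, and Runx1t1, which encodes a corepressor, at 4.30 and 4.18 against 5.97 and 6.55 TPM. None of the 3 passed (limma, adjusted p = 0.21, 0.233 and 0.225). The median of the list was -0.19. Of the 19, 10 lay lower and 3 higher without overlap, against 21.2% and 22.7% of all tested genes. Such separation in either direction was not particular to this list. It held for 68.4% here, 66.7% of the osteoblast and of the restraint genes, 64.7% of the cartilage genes and 63.0% of the condensation genes.

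**Figure D4:**
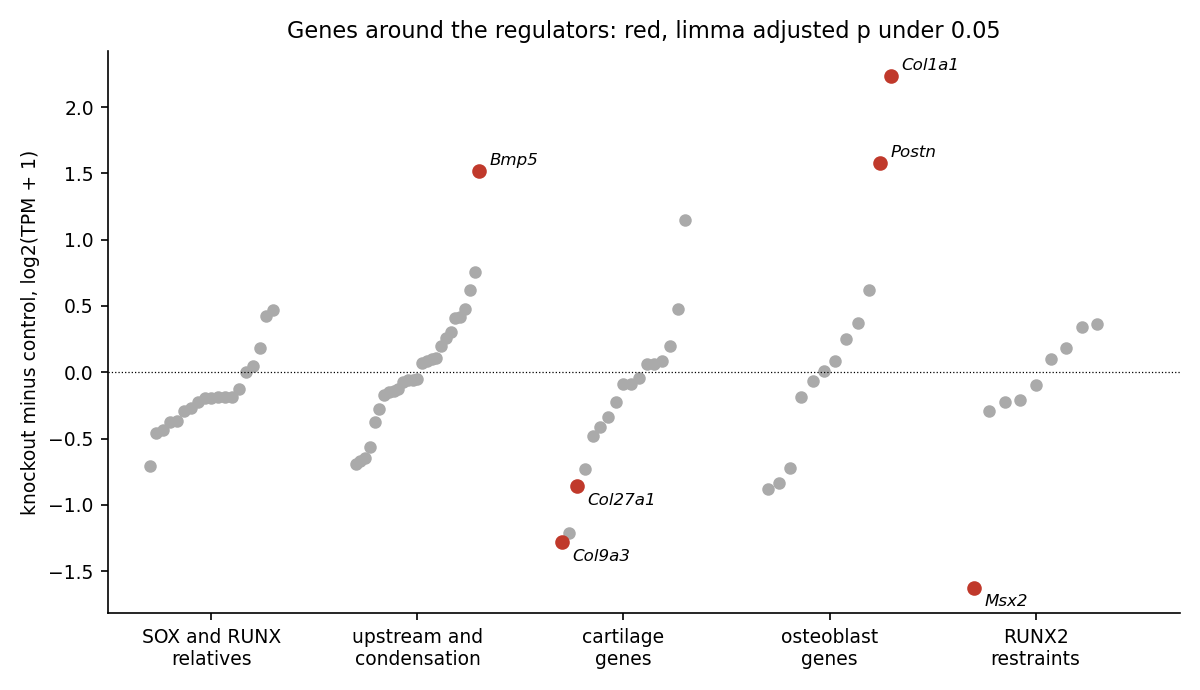
Knockout minus control on the log2(TPM + 1) scale for every tested gene of 5 lists, sorted within each list; red points with names passed limma at an adjusted p under 0.05, and grey points did not. Called genes were Bmp5, Col1a1 and Postn above 0 and Col9a3, Col27a1 and Msx2 below 0, out of 27, 12, 17 and 9 tested genes in their lists, with 0 of 19 among the SOX and RUNX relatives.

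Some regulators are also known from other cells of the limb bud, and in whole buds fewer cells of a type cannot be told apart from less RNA per cell. Knockouts lay above both controls in 22.7% of all tested genes and below both in 21.2%, and the marker counts below stand beside those shares. For Runx1, 5 of 11 macrophage markers were lower in both knockouts and 0 higher, and their sum was 29.1 and 40.5 TPM in the controls and 28.2 and 23.2 TPM in the knockouts. Csf1r, the receptor that defines the lineage, overlapped between the genotypes, at 1.42 and 3.95 against 2.09 and 1.81 TPM. Blood progenitor markers summed to 57.6 and 77.4 TPM in the controls and 60.5 and 78.0 TPM in the knockouts, with 2 of 11 higher and 1 lower. For Runx3, 3 of 11 neuron markers were higher and 2 lower, and the list summed to 12.8 and 14.6 TPM in the controls and 31.5 and 22.1 TPM in the knockouts. Pou4f1 accounted for 1.03 and 1.16 TPM of the sums in the controls and 20.1 and 11.1 TPM in the knockouts. For Sox6, muscle precursor markers summed to 47.6 and 35.1 against 63.3 and 50.3 TPM, with 2 of 9 higher, and erythroid markers to 9941 and 11332 against 12612 and 12005 TPM, with 3 of 12 higher and 1 lower. Sox10 and the other Schwann cell and neural crest markers summed to 15.1 and 14.5 against 13.0 and 10.8 TPM, with 2 of 8 higher and 2 lower, and Foxd3 was listed at 0 in both controls. For Sox9 and Trps1, surface ectoderm markers had 1 of 12 higher and 4 lower. The part of these cells in the values of the regulators was not tested.

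The genes whose pattern over the 4 libraries was most like that of Sox9 were Synpo, Mospd3 and Zfp691, at Euclidean distances of 0.06, 0.10 and 0.10 between centred log2(TPM + 1) values among 9944 genes with a mean of at least 5 TPM. All 3 were highest in the knockout of 39 somites. For Runx2 they were Vmn2r-ps54, Kank3 and Tmem63a, at distances of 0.08, 0.15 and 0.15, and all 3 were highest in the knockout of 40 somites. With 4 libraries such likeness describes the shape of 4 values and no more.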

How the data were processed

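RNA sequencing of 4 forelimb libraries was available as a deposited table of TPM values per gene (4 columns with a total of 1000000 each). Salmon 1.9.0 and mm10 are listed, without their roles, in the submitters' processing notes, and which transcript set was used is not given in the sources used here. The authors' TPM values keep no read depth, so no count test or counting interval was used. Column names were matched to sample titles, and 1 column name carries a letter that its title lacks. Per the labels, 310 to 580 ng of RNA with an integrity number of 10 was obtained per sample.

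Symbols were matched for 35422 of 35727 identifiers, and 38 repeated symbols were summed. Genes with at least 1 TPM in at least 2 libraries were tested with limma 3.58.1 (R 4.3.3) on log2(TPM + 1), using eBayes with a variance trend and two-sided p-values, adjusted by Benjamini-Hochberg over 12809 genes at 0.05. Fold changes are knockout minus control on that scale, which understates changes of low genes. Nothing says whether embryos came from separate litters, so the p-values judge differences against the spread between these embryos. That spread was shared in part across genes, with 4.16 degrees of freedom for the shared part and 2 for the gene's own. The test was tried on simulated data of the same design, with 200 changed genes of 12809. It called 1.26% of changes of 0.5 log2 units, 55.8% of 1 unit and 94.5% of 2 units, and 5.57% of its calls were false. Lists are described by counts and medians, with no list test. Named were Smarcc1, all 10 regulators, and in each list the called genes and the 4 with the smallest p-values; Col2a1, genes of mature cartilage and bone and markers were named after their values were seen. The regulators, lists and tests were chosen with earlier results of these data known. The 16 alternatives were pseudocounts, filters, scalings, variance estimates, stage as a block, gene sets, libraries left out and a threshold of 0.1.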

Additional observations from a re-analysis of the deposited data

Results flagged for a closer look

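For both SoxD partner genes of SOX9 the knockout lay on opposite sides of the control at the 2 stages, with 1 embryo of each genotype at each stage. As the difference of knockout minus control in log2(TPM + 1), Sox5 gave 0.0737 at 40 somites and -0.205 at 39 somites. Sox6 gave 0.455 at 40 somites and -0.145 at 39 somites. Whether the genotype difference itself differs between stages was not tested, since a single embryo per genotype and stage leaves no spread to test it with. Groups of 2 libraries are too small for a check of single outlying libraries.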

How the results depend on the processing

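Of 103 log2 fold changes of the 7 tested regulators under alternatives, 94 kept their direction and their side of the threshold, 7 turned in direction and 2 became calls, all 9 of these with a library left out. With each library left out in turn the fold changes ran from -0.0237 to 0.687 for Sox9, -0.345 to 0.213 for Sox5, -0.0148 to 0.324 for Sox6, 0.516 to 1.0 for Runx2, -0.0996 to 0.0721 for Cbfb, -0.345 to -0.173 for Sp7 and -0.179 to 0.0212 for Trps1, and the number of regulators called ran from 0 to 1. In the other alternatives 0 regulators were called; with no filter all 10 were tested and limma gave 2 an unadjusted p under 0.05 and 0 an adjusted one.

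Over all genes limma called 167 in the main analysis, 0 with no filter on low values (2338 at an unadjusted p under 0.05), 533 with somite stage as a block, 275 with a robust variance, 295 among protein-coding genes, 316 at a threshold of 0.1, and between 50 and 646 with a library left out (50 and 59 without a control, 501 and 646 without a knockout). Of the list counts, those of cartilage genes went from 2 to 1 at a pseudocount of 0.1, under median-ratio scaling and under quantile normalization, to 0 with no filter and at a filter of 5 TPM, to 4 among protein-coding genes and at a threshold of 0.1, and from 0 to 5 with a library left out. Those of osteoblast genes went from 2 to 1 at a pseudocount of 0.1, at a filter of 5 TPM and under both scalings, to 0 with no filter, to 4 with stage as a block, and from 1 to 6 with a library left out. Condensation genes went from 1 to 0 with no filter, to 2 with stage as a block, and from 1 to 2 with a library left out. Restraints of RUNX2 went from 1 to 0 with no filter and under both scalings, and from 0 to 1 with a library left out. Relatives went from 0 to 1, the gene Aes, under both scalings, with stage as a block, with a robust variance, without mitochondrial, erythroid and sex-linked genes, among protein-coding genes, at a threshold of 0.1, and from 0 to 1 with a library left out. With no filter more genes are tested and with a filter of 5 TPM fewer; for the rest the cause was not tested. With a library left out its genotype has 1 library, which is assumed to vary like the other group. Stage and sex are then not balanced between the genotypes.

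The block pairs libraries by somite stage in the labels, since the labels give no replicate numbers; over the tested genes, which are not independent, the deviations of libraries of equal stage had a Pearson r of 0.250 and a Spearman rho of 0.364. It changed no call among the regulators, and among the listed genes Tgfb3, Pth1r, Col1a2, Dlx3 and Aes and the markers Prrx1, Hba-a1, Grhl3, Cldn6 and Perp became calls. The smallest SE of a tested regulator was 0.12, and depth, which is unknown, limits the genes under 2 TPM most.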
